A study of Mus musculus with 11 samples.

Results

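Cells 2 and 3, in which many contacts joined different chromosomes, were set beside cells 6 and 7, in which fewer did. Hi-C ligates pieces of cut chromatin that are near each other and sequences the junctions, and each junction is counted as 1 contact with an end on both pieces. A contact between chromosomes is called trans, and one within a chromosome cis. These 4 cells were chosen out of 11 samples, which are 10 single cells and 1 population (ensemble) map, by their measured trans share. In the deposited maps that share was 25.9% in cell 2 (95% Wilson interval 25.4 to 26.4), 25.03% in cell 3 (24.5 to 25.6), 10.6% in cell 6 (10.2 to 11.1) and 14.2% in cell 7 (13.6 to 14.8). Outside the choice, cell 4 held 25.05%, which is above cell 3, and cell 1 6.96%, which is below cell 6, while cells 9, 10 and 5 held 15.7%, 18.3% and 19.6%. Because the trans share chose the cells, it is described here and not tested.

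All 4 cells were Th1 cells, a kind of CD4-positive helper T cell, raised from the spleen of C57BL/6 males. They had 3 days of anti-CD3 stimulation, were selected on anti-CD4 beads and then grown on in IL-2. Their chromatin was cut with Bgl II, and so was that of the ensemble. The labels give no treatment, genotype or age that separates them, and name no animal or culture for a cell, so they cannot be taken as separate biological replicates. Contact maps hold no expression, so the labelled cell type could not be checked against markers.

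In an interphase nucleus each chromosome occupies its own territory, and contacts within it are favoured over those with neighbours. Trans contacts form where territories meet or intermingle. In mouse, the centromere of each autosome lies at one end, the end with the lowest coordinates. At a larger scale chromatin sorts into compartments, usually an active gene-rich one and an inactive one, and regions of 1 compartment meet each other more often than they meet the other. Both copies of an autosome are mapped together here, so contacts between them count as cis.

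Cell 2 held 27374 contacts, cell 3 24297, cell 6 16955 and cell 7 13530, so the first 3 were thinned at random to 13530 contacts. With both ends on chromosomes 1 to 19, 13162 to 13200 contacts remained in each. No contact was listed more than once in a cell, and any pair of these cells shared between 1 and 6 identical contacts. Fragment ends with more than 1 partner were 1.84% and 1.86% of ends in cells 2 and 3 and 1.42% and 1.43% in cells 6 and 7, before thinning. With 2 cells against 2, an exact two-sided permutation test cannot go below p = 0.333, and cells chosen on the readout cannot be tested against each other, so no p is given. Wilson intervals cover counting error alone and take contacts as independent. The references were the authors' pool of single cells without the 9 Bgl II cells (2119836 contacts) and the ensemble.

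Thinned to equal contact number, cell 2 held 3382 trans contacts among its autosomal contacts (25.7%), cell 3 3251 (24.7%), cell 6 1404 (10.6%) and cell 7 1829 (13.9%). The pool held 20.1% and the ensemble 49.98%. On 19 of 19 autosomes, both cells 2 and 3 had a larger share of their contact ends in trans contacts than both cells 6 and 7 (100% of chromosomes). The choice of cells fixes the overall direction, so nothing is read from this count. Each chromosome held between 641 and 2229 contact ends in a cell. On chromosome 19, the smallest autosome, the trans share was 31.3% in cell 2, 34.8% in cell 3, 12.6% in cell 6 and 18.9% in cell 7. On chromosome 1, the largest, it was 21.5%, 21.8%, 7.04% and 11.96%. These values are given as examples, since the choice of cells favours their direction too.

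**Figure D1:**
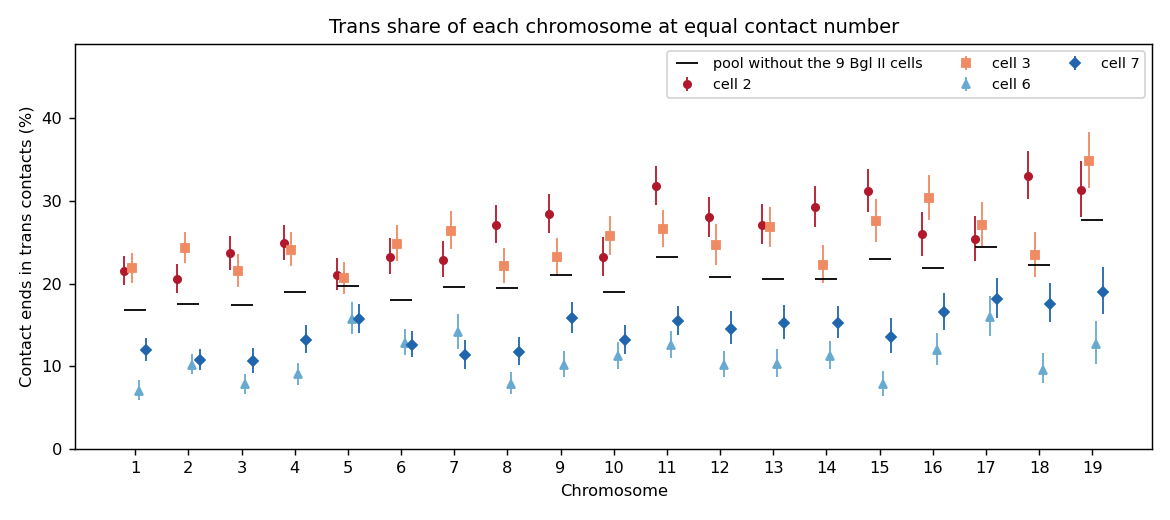
Trans share of each autosome (percent of its contact ends that lie in trans contacts) in cells 2, 3, 6 and 7 at 13530 contacts each, with 95% Wilson intervals, and in the pool (black bars). Both red symbols lie above both blue symbols on all 19 chromosomes, closest on chromosome 5 and farthest apart on chromosome 15.

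The distance between the pairs of cells differed by chromosome. It was smallest on chromosome 5, where cells 2 and 3 held 21.1% and 20.7% and cells 6 and 7 15.7% each. On chromosome 15 the share was 31.2% in cell 2, 27.5% in cell 3, 7.79% in cell 6 and 13.6% in cell 7, a distance of 13.96 points between cell 3 and cell 7. On chromosome 18 cell 2 stood alone with 33.1%, against 23.4% in cell 3, 9.58% in cell 6 and 17.6% in cell 7.

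Which chromosomes led was not the same in each cell. In cell 2 the highest shares were on chromosomes 18, 11 (31.8%) and 19 and the lowest on chromosomes 2 (20.6%), 5 and 1. In cell 3 chromosomes 19, 16 (30.4%) and 15 were highest and 5, 3 (21.5%) and 1 lowest. In cell 7 chromosomes 19, 17 (18.1%) and 18 were highest and 3 (10.6%), 2 (10.7%) and 7 (11.3%) lowest. In these cells, as in the pool, small chromosomes had the larger shares. Cell 6 differed: chromosomes 17 (15.9%), 5 and 7 (14.1%) were highest and chromosomes 1, 3 (7.78%) and 15 lowest. Across the 19 chromosomes of 1 map, which are not independent replicates, trans share and chromosome length had a Spearman rho of -0.775 in cell 2, -0.675 in cell 3, -0.811 in cell 7 and -0.916 in the pool, but -0.296 in cell 6. Cell 6 was not alone in this among the Bgl II cells, as rho was -0.191 in cell 1 and -0.263 in cell 5. It was -0.702 in cell 4, -0.672 in cell 9 and -0.660 in cell 10. Chromosomes 7, 5 and 1 of cell 6 held few contact ends per Mb, 0.612, 0.795 and 0.802 of its median chromosome. The other 8 Bgl II cells had 0.767 to 0.942 on chromosome 7, 0.941 to 1.06 on chromosome 5 and 0.947 to 1.04 on chromosome 1. Of these 3, chromosomes 5 and 7 were among the highest trans shares of cell 6 and chromosome 1 was the lowest (7.04%). What part coverage has in the trans share of these chromosomes was not tested.

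The number of partners asks how many other chromosomes a chromosome touched. At equal contact number, every chromosome of cells 2 and 3 touched all 18 other autosomes, while a chromosome of cell 6 touched 14.2 on average (12 to 16) and one of cell 7 16.7 (14 to 18). Contacts placed with the ensemble's shares would give 17.96 partners at the trans number of cell 6 and 17.99 at that of cell 7. Partner number grows with trans number, which chose the cells, so trans contacts were also thinned to 1404 in each cell. Cells 2 and 3 then had 17.8 partners each (SD over 19 chromosomes 0.419 in each), cell 7 16.3 (SD 1.25) and cell 6 14.2 (SD 1.47). Both cells 2 and 3 had more partners than both cells 6 and 7 on 15 of 19 chromosomes (78.9%) and fewer on 0 (0%). The 4 others were chromosomes 5, 14, 17 and 19, where cell 7 reached all 18. Where a partner needed at least 5 of the 1404 contacts, the order was the same but cell 7 came close to cell 2, with 11.5 and 11.8 partners in cells 2 and 3, 11.4 in cell 7 and 9.68 in cell 6.

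The effective partner number, which is the exponential of the Shannon entropy and falls where a few partners take most contacts, ran in the same order. At 1404 trans contacts it was 13.8 in cell 2, 14.2 in cell 3, 10.3 in cell 6 and 12.8 in cell 7 as means over chromosomes, against 17.5 in the ensemble. Another random draw gave 13.4 in cell 2, 14.5 in cell 3, 10.3 in cell 6 and 12.9 in cell 7, so cells 2 and 7 lay close. Both cells 2 and 3 were above both cells 6 and 7 on 12 of 19 chromosomes (63.2%). Chromosome 16 of cell 6 met chromosome 2 with 47 of its 133 trans contacts (35.3%), and its effective partner number was 8.97. The same chromosome gave its leading partner 19.8% in cell 2, 18.4% in cell 3 and 16.8% in cell 7. Chromosome 10 was an exception, with an effective number of 14.6 in cell 2 but only 11.6 in cell 3, where chromosome 2 took 24.3% of its trans contacts, against 12.9 in cell 6 and 13.7 in cell 7.

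**Figure D2:**
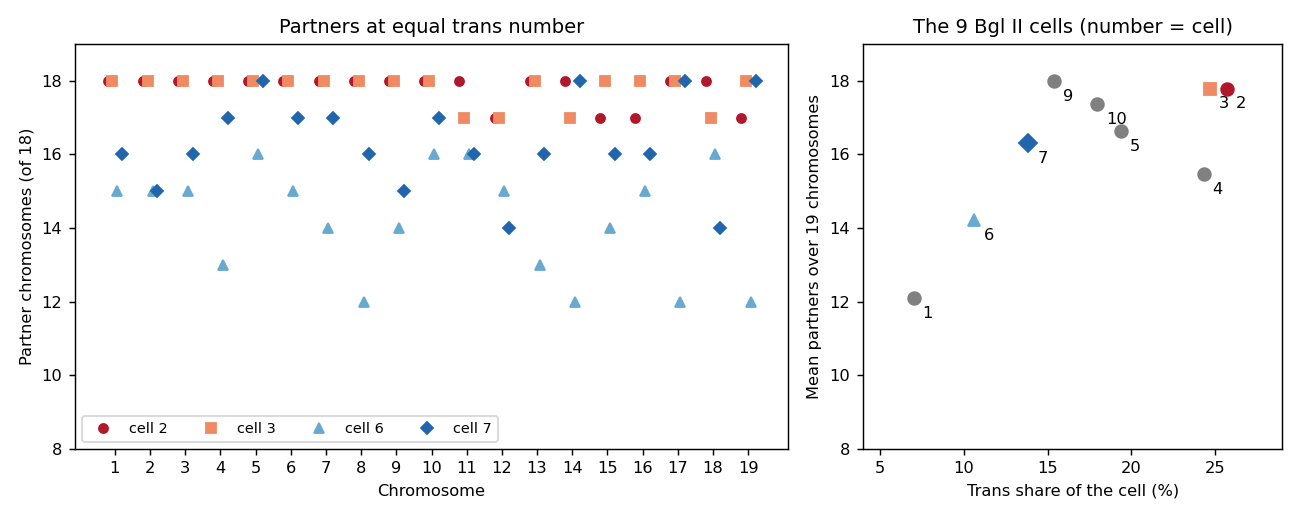
Left, number of other autosomes (of 18) with at least 1 trans contact, for each chromosome of cells 2, 3, 6 and 7 at 1404 trans contacts each. Right, its mean over 19 chromosomes against the trans share of each of the 9 Bgl II cells (927 trans contacts in cell 1, 1404 in the others). Cells 2 and 3 lie at 17.8 and cell 6 at 14.2, but cell 9 lies at 18 with a trans share of 15.4% and cell 4 at 15.5 with 24.3%.

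More chromosome pairs had no sampled contact in cells 6 and 7. Over all pairs of autosomes, 36 had no contact in cell 6 and 16 in cell 7 at 1404 trans contacts, against 2 in cell 2 and 2 in cell 3. Of the 36 pairs absent in cell 6, 35 were present in both cells 2 and 3, and 1 was absent in cell 7 too. They were not pairs that are rare in the population, as their median expected number from the ensemble's shares was 7.51 against 7.90 over all pairs. Chromosomes 2 and 10, for example, had 0 contacts in cell 6, 7 in cell 7, 4 in cell 2 and 37 in cell 3, with 11.3 expected. Without thinning, 31 pairs had no contact in cell 6 and 12 in cell 7, against 0 in cells 2 and 3. A count of 0 allows up to 3 contacts.

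**Figure D3:**
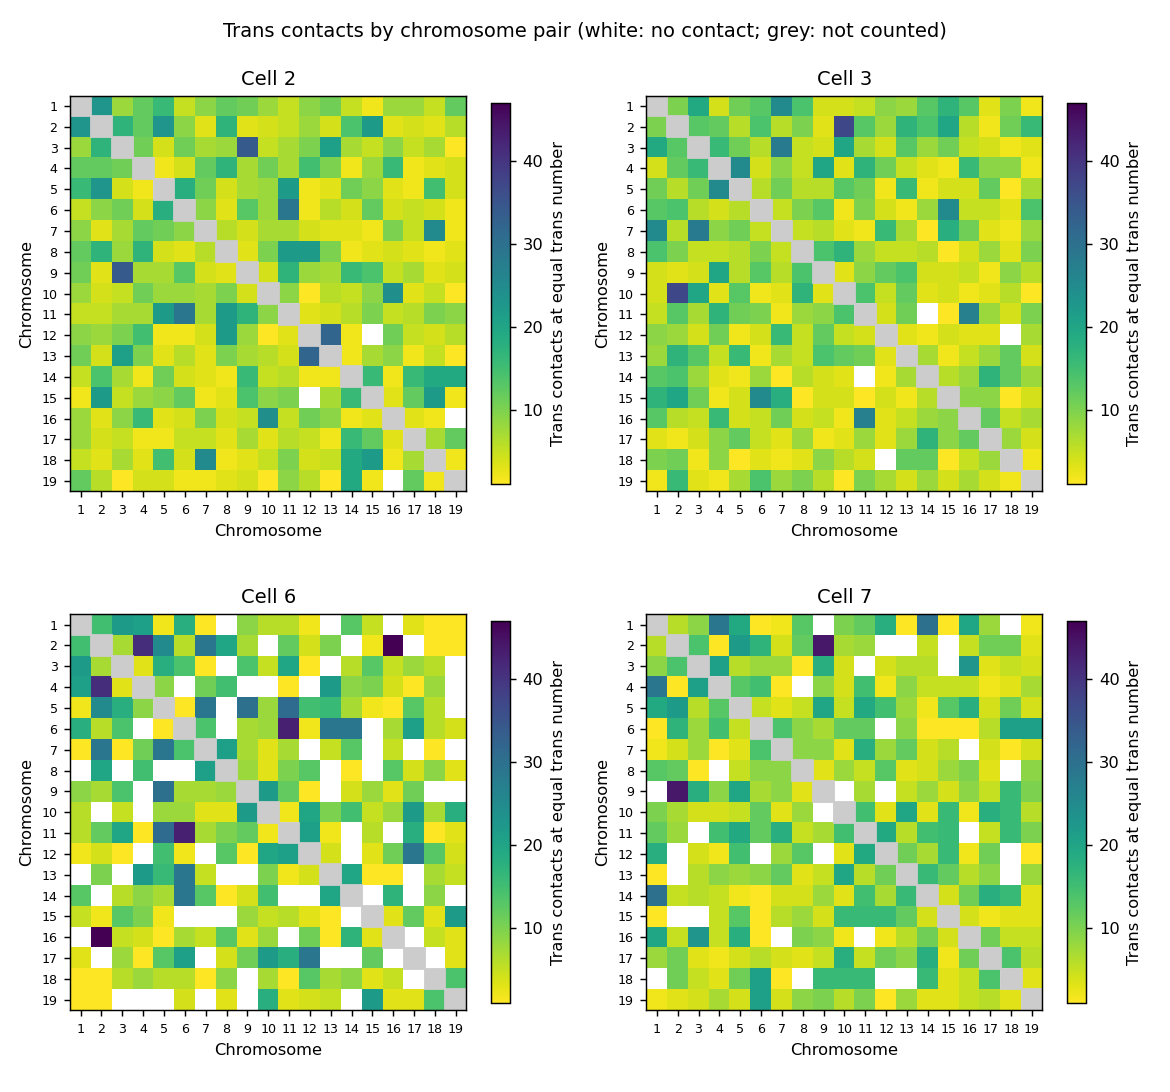
Trans contacts of each pair of autosomes in cells 2, 3, 6 and 7 at 1404 trans contacts each (colour scale, number of contacts; white, no contact; grey, not counted). White cells cover 36 pairs in cell 6 and 16 in cell 7 but 2 each in cells 2 and 3, and the largest pair is 3 and 9 in cell 2 (34), 2 and 10 in cell 3 (37), 2 and 16 in cell 6 (47) and 2 and 9 in cell 7 (44).

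The first-ranked interface was a different pair in each cell. At equal contact number, chromosomes 12 and 13 led in cell 2 with 94 trans contacts, where the ensemble's shares give 15.3, and had 10 in cell 3, 4 in cell 6 and 15 in cell 7. Next in cell 2 came chromosomes 3 and 9 (72 contacts) and 15 and 18 (63). In cell 3 the largest interface was that of chromosomes 2 and 10, with 87 contacts where 26.2 were expected, followed by 4 and 5 (65) and 11 and 16 (58). Chromosomes 11 and 16 had no contact in cells 6 and 7 and 8 in cell 2. In cell 6, chromosomes 2 and 16 (47 against 8.71), 6 and 11 (43) and 2 and 4 (41) led. Chromosomes 6 and 11 were also large in cell 2, with 62 contacts against 27.3. In cell 7, chromosomes 2 and 9 (58 against 17.04), 1 and 4 (40) and 1 and 14 (38) led. Chromosomes 1 and 14 also had 40 contacts in cell 3, where 21.3 were expected.

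At equal trans number the size of interfaces did not separate the pairs of cells. The 10 largest interfaces held 18.2% of trans contacts in cell 2, 17.5% in cell 3 and 17.9% in cell 7, but 24.0% in cell 6. Outside the choice they held 27.7% in cell 1 (at 927 trans contacts), 26.4% in cell 4 and 25.9% in cell 5, above cell 6. In cells 9 and 10 they held 16.1% each. Both cells 2 and 3 exceeded both cells 6 and 7 on 25 chromosome pairs (14.6% of all pairs) and lay below both on 23 (13.5%). Of the 20 largest interfaces in each cell, cells 2 and 3 shared 1 (5% of each list) and cells 6 and 7 shared 6 (30%). The other combinations shared 1 to 3. A list of 20 holds 11.7% of all pairs.

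Within interfaces, trans contacts were joined into patches where both ends lay within 5 Mb of another contact. At 1404 trans contacts, 76.6% (74.4 to 78.8) of contacts in cell 2 and 77.4% (75.2 to 79.5) in cell 3 were alone in their patch. In cell 7 69.2% (66.7 to 71.5) and in cell 6 56.3% (53.7 to 58.8) were alone, so both lay below cells 2 and 3. Likewise, 5.13% (4.09 to 6.41) and 8.05% (6.74 to 9.59) of trans contacts in cells 2 and 3 had another trans contact within 1 Mb of both ends, sharing no fragment end, against 18.9% (16.9 to 21.0) in cell 6 and 10.8% (9.24 to 12.5) in cell 7. Thinning trans contacts to 1 number spreads out the patches of the cells that had more. At equal contact number, with all their trans contacts, the shares with such a neighbour were 13.4% in cell 2, 16.1% in cell 3, 18.9% in cell 6 and 13.2% in cell 7, and the pairs of cells overlapped. The trans contacts with no neighbour then numbered 2928, 2728, 1139 and 1587, and those with a neighbour 454, 523, 265 and 242.

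At equal trans number there were 6 patches of 5 or more contacts in cell 2, 3 in cell 3, 10 in cell 6 and 5 in cell 7, so the pairs of cells overlapped. At equal contact number, where cells 2 and 3 keep more trans contacts, there were 55 in cell 2 and 38 in cell 3, with 351 and 232 trans contacts, against 10 and 8 in cells 6 and 7, with 72 and 48. The largest patch of cell 2 joined chromosome 3 from 141205305 to 151728807 with chromosome 9 from 79142111 to 97738436 by 17 contacts (mm9), and 13 of these joined class 2 bins, which are defined in the next comparison. The same area held 0 contacts in cell 3, 1 in cell 6 and 0 in cell 7, and the pool scaled to the trans number of cell 2 gives 0.343. In cell 6 the largest patch had 16 contacts and linked chromosome 6 from 9732398 to 24744086 and chromosome 11 from 19008531 to 34835314, where cells 2 and 3 had none and cell 7 had 1. In cell 3 the largest patch held 10 contacts, between chromosome 11 from 78756024 to 89492945 and chromosome 16 from 23144817 to 42239618. In cell 7 it held 8, between chromosome 1 from 38240649 to 44117589 and chromosome 4 from 135986144 to 138753251. Neither area held a contact in any of the other 3 cells. As the patches were picked for their size, these numbers are a description. No gene is named, because no annotation of this build was used here.

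Compartment sorting asks whether trans contacts respect the classes of chromatin seen in the population. Autosomes were divided into 2366 bins of 1 Mb, and the ensemble's leading cis eigenvector put each in class 1, richer in fragment ends (38.5% of bins), or class 2. Trans contacts were sorted by class in all 4 cells, and less so in cells 2 and 3. Trans contacts joined bins of 1 class in 62.4% (60.7 to 63.99) of cases in cell 2, 64.3% (62.6 to 65.9) in cell 3, 69.3% (66.8 to 71.7) in cell 6 and 69.98% (67.8 to 72.04) in cell 7. From the class make-up of the ends on each chromosome, chance pairing gives 50.01% to 50.3%. Over this expectation the trans contacts of cell 2 stood 12.1 points and those of cell 3 14.3, against 19.2 in cell 6 and 19.97 in cell 7, with 15.3 in the pool. Intervals of cells 2 and 3 did not reach those of cells 6 and 7. The excess vanished in all 4 cells (between -1.60 and 0.481 points) when the ensemble map was not balanced before the eigenvector was taken.

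The lower sorting lay in both kinds of contact. Contacts between class 1 and class 2 were 0.756 and 0.715 of the expected number in cells 2 and 3 and 0.615 and 0.601 in cells 6 and 7. Pairs of class 1 bins stood at 1.28 and 1.31 against 1.35 and 1.41, and pairs of class 2 bins at 1.21 and 1.27 against 1.42 and 1.39. In numbers, cell 2 had 2100 trans contacts within and 1267 between classes, cell 3 2082 and 1156, cell 6 967 and 428, and cell 7 1275 and 547. Contacts of both kinds were more numerous in cells 2 and 3, and the number within classes per contact between classes was 1.66 and 1.80 there against 2.26 and 2.33.

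By chromosome, sorting was lower in both cells 2 and 3 than in both cells 6 and 7 on 13 of 19 chromosomes (68.4%) and higher on 0 (0%). A trans contact counts on both of its chromosomes, so these are not independent. Chromosome 6 had an excess of 5.52 points in cell 2, 13.7 in cell 3, 21.3 in cell 6 and 19.8 in cell 7. Chromosome 7 had 11.6, 9.25, 26.4 and 20.3. Chromosome 3 was among the 6 that overlapped, with 15.1, 15.1, 9.54 and 15.4 points.

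**Figure D4:**
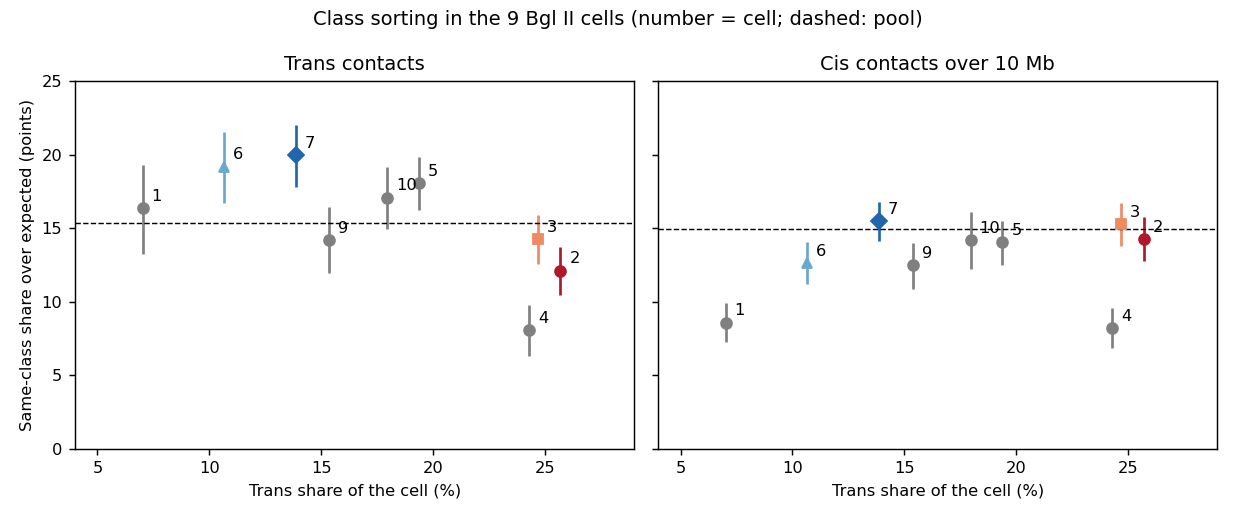
Share of contacts joining bins of 1 class, in percentage points over the share given by the class make-up of the ends, against the trans share of each of the 9 Bgl II cells, for trans contacts (left) and cis contacts over 10 Mb (right). Bars are 95% Wilson intervals of the same-class share with the expected share held fixed, and dashed lines give the pool. In trans contacts cells 6 and 7 lie above cells 2 and 3, and in cis contacts the 4 cells overlap.

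In these 4 cells, sorting of cis contacts did not follow that of trans contacts. Among cis contacts at distances above 10 Mb, the excess within classes was 14.3 points (12.8 to 15.7) in cell 2, 15.3 (13.8 to 16.7) in cell 3, 12.6 (11.2 to 14.03) in cell 6 and 15.5 (14.1 to 16.8) in cell 7. Cells 2 and 3 lay between cells 6 and 7, and the pool stood at 14.96 points. Outside the choice, the cis excess was 8.22 points in cell 4, the lowest cell in trans sorting too, and 8.58 in cell 1. It was 12.5 in cell 9, 14.2 in cell 10 and 14.03 in cell 5. Without balancing the excess was 2.94 points in cell 2, 3.75 in cell 3, 2.87 in cell 6 and 3.64 in cell 7, and the pairs of cells still overlapped.

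Chromosome span, read from distances of cis contacts, did not separate the cells either. Among cis contacts longer than 1 Mb, the part longer than 10 Mb was 68.3% (67.02 to 69.5) in cell 2 and 69.2% (67.9 to 70.4) for cell 3, against 67.2% (66.1 to 68.4) in cell 6 and 71.1% (69.9 to 72.2) in cell 7. Their median distance was 22.3 Mb in cell 2, 21.6 in cell 3, 19.1 in cell 6 and 23.2 in cell 7. The slope of contact density with distance between 100 kb and 10 Mb, on log scales, was -0.967, -1.004, -0.971 and -1.04. Cell 6 stood below the others at the longest range, with 13.6% (12.8 to 14.4) of these contacts over 50 Mb, against 23.1% (21.97 to 24.2) in cell 2, 19.5% (18.5 to 20.6) in cell 3 and 21.3% (20.3 to 22.4) in cell 7.

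By chromosome, the median cis distance was longer in both cells 2 and 3 on 4 of 19 chromosomes (21.1%), which were 2, 10, 14 and 16, and shorter in both on 2 (10.5%), which were 12 and 18. Chromosome 10 had a median of 33.2 Mb in cell 2 and 29.3 in cell 3 but 19.1 in cell 6 and 18.96 in cell 7. Chromosome 18 had the reverse, with 13.3 and 12.2 Mb against 22.3 and 15.3. As shares of all contacts, cis contacts of most distances were lower in cells 2 and 3. Cells chosen for more trans contacts hold fewer cis contacts in total, so nothing is read from this direction. Those from 20 kb to 1 Mb made up 20.8% and 22.6% of all contacts there against 26.4% and 25.6% in cells 6 and 7, and those from 10 to 50 Mb 18.6% and 20.6% against 25.7% and 22.9%. Those above 50 Mb overlapped, with 9.48% and 8.09% against 6.50% and 9.83%. As shares of cis contacts, those between 20 kb and 1 Mb overlapped too, with 28.1%, 30.01%, 29.6% and 29.7%.

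**Figure D5:**
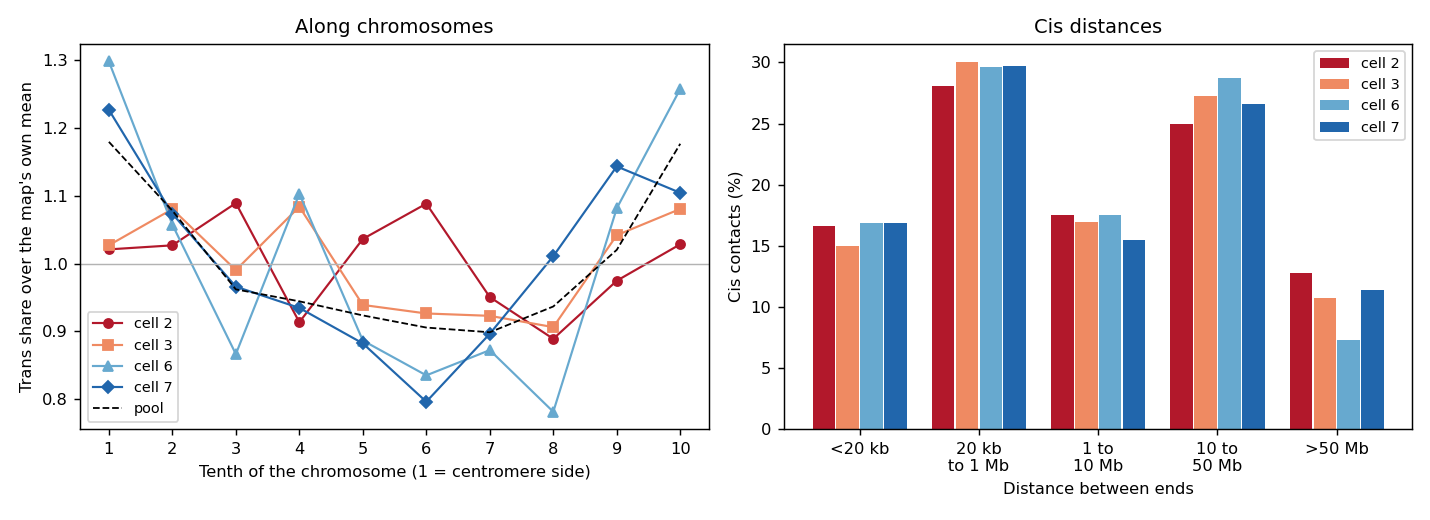
Left, trans share of contact ends in 10 equal parts of each chromosome, counted from the centromere side and divided by the map's own mean, in cells 2, 3, 6 and 7 and in the pool (dashed). Right, cis contacts by distance, in percent of all cis contacts of the cell. The part next to the centromere lies at 1.30 and 1.23 in cells 6 and 7 and at 1.02 and 1.03 in cells 2 and 3, and the cis bars of 20 kb to 1 Mb lie between 28.1% and 30.01%.

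Along chromosomes, the trans share near the centromere exceeded that of the middle by more in cells 6 and 7 than in cells 2 and 3. In the first 10 Mb, on the centromere side, 13.2% (11.8 to 14.9) of ends in cell 6 and 17.5% (15.8 to 19.4) in cell 7 were in trans contacts, 1.31 and 1.32 times the share in the middle, which is all but the first and last 10 Mb. In cells 2 and 3 the first 10 Mb held 26.9% (24.9 to 29.04) and 25.7% (23.8 to 27.7), 1.06 times the middle in each. The last 10 Mb stood at 1.09 times the middle in cell 2, 1.18 in cell 3, 1.44 in cell 6 and 1.22 in cell 7. In points, the first 10 Mb stood 1.498 above the middle in cell 2 and about the same in cell 3, against 3.17 in cell 6 and 4.20 in cell 7. The last 10 Mb stood 2.20, 4.28, 4.40 and 2.94 points above it, so there the pairs of cells overlapped. With both ends of the chromosomes joined, the ratio was 1.07 and 1.12 in cells 2 and 3, 1.38 and 1.26 in cells 6 and 7, and 1.28 in the pool. Each chromosome was also cut into 10 equal parts. Set against the cell's own mean, both cells 2 and 3 were below both cells 6 and 7 in 3 parts (30%), the first, the ninth and the last, and above both in 4 (40%), parts 3, 5, 6 and 7. In cell 7, for example, the trans share was 16.996% in the first part and 11.03% in part 6, and in cell 6 13.8% and 8.88%. In cell 3 it was 25.3% and 22.9%, also lower in part 6, while in cell 2 it was 26.2% and 27.96%.

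Ends of both classes had a higher trans share in cells 2 and 3 than in cells 6 and 7. The choice of cells favours this direction, so nothing is read from it. Class 1 ends were in trans contacts in 28.1% and 27.6% of cases in cells 2 and 3 and in 12.9% and 16.6% in cells 6 and 7, and class 2 ends in 23.9%, 22.4%, 8.91% and 11.9%. The difference between classes was similar in points (4.22, 5.22, 3.97 and 4.66), so its ratio was lower in cells 2 and 3 (1.18 and 1.23) than in cells 6 and 7 (1.45 and 1.39).

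The 5 Bgl II cells outside the choice show which of these contrasts go along with trans share elsewhere. Cell 4, with 24.3% of its thinned autosomal contacts in trans, had the lowest class sorting of the 9, 8.06 points, below cells 2 and 3. Yet it had 15.5 partners per chromosome at equal trans number, fewer than cell 7, and an effective number of 10.02, below cell 6. Cell 9, at 15.4% trans and next above cell 7, had 18 partners and an effective number of 14.95, both above cells 2 and 3, and its sorting of 14.2 points was at the level of cell 3. Cells 10 and 5, at 17.96% and 19.4%, had 17.1 and 18.04 points of sorting and 17.4 and 16.6 partners. Cell 1, the lowest in trans share, had 16.3 points and 12.1 partners at 927 trans contacts. Neither partner number nor class sorting ran in the order of trans share among these 5 cells. Cells 9 and 10 held 11710 and 11156 contacts and were used whole, so they were shallower than the others. Trans contacts alone in a patch were 60.5% in cell 1, 83.7% in cell 9, 71.7% in cell 10, 64.1% in cell 5 and 69.0% in cell 4. Those with a neighbour within 1 Mb were 19.1%, 4.84%, 9.40%, 11.8% and 5.48%, in the same order. These are at 1404 trans contacts, except cell 1 at 927. Cell 9 lay beyond both cells 2 and 3 in both measures. With both chromosome ends joined, their trans share over the middle was 1.22 in cell 4, 1.28 in cell 9 and 1.36 in cell 10. It was 1.34 in cell 5 and 1.30 in cell 1. All 5 were above cells 2 and 3. For the first 10 Mb alone the ratio was 1.18 in cell 4, 1.15 in cell 9 and 1.38 in cell 10. It was 1.41 in cell 5 but 1.04 in cell 1, which is below the 1.06 of cells 2 and 3. That ratio of cell 1 rests on 126 trans ends, 6.97% (5.88 to 8.23) against 6.71% in the middle. In the first of 10 equal parts, cell 1 stood at 1.10 times its own mean, above cells 2 and 3 (1.02 and 1.03). Cell 9 lay between cells 2 and 3 there, at 1.02. Whether the centromere-side contrast held in the cell of lowest trans share thus depended on the measure.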

How the data were processed

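The deposited files give chromosome and position in bp for both ends of each contact, 1 contact a line, per the file headers, and contacts were counted from the lines. The submitters' processing notes name the build as mm9. How reads were aligned and filtered is not given in the sources used here. Cells, measures and named pairs were chosen with earlier results of these data known.

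Maps of over 13530 contacts were thinned to that number by 1 random draw, cells 7, 9 and 10 were used whole, and chromosomes 1 to 19 were used. Classes were the sign of the leading eigenvector of the ensemble's cis map at 1 Mb, balanced over 50 iterations without bins below 0.2 of the median sum, oriented by fragment end density. Expected same-class shares came in closed form from the class 1 share of the ends on both chromosomes of a contact. Named were the 3 chromosomes of highest and lowest trans share, the 3 leading pairs and the largest patch of each cell, and other examples chosen after their values were seen. Shares of ends count both ends of a cis contact, so their intervals are too narrow, and excess intervals hold the expected share fixed. Class sorting, patches and the partner number given by the ensemble's shares were tested on simulated maps, and the other measures were not. Alternatives were another seed, no thinning, chromosome X, other radii, bins and distances, no balancing, and each cell left out. Software was Python 3.11.15, matplotlib 3.10.9, pandas 2.3.3, numpy 2.4.6 and scipy 1.17.1.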

Additional observations from a re-analysis of the deposited data

Results flagged for a closer look

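For 10 results, and for the contact ends per Mb and trans share of 19 chromosomes, the 9 Bgl II cells were compared with each other, which makes 48 sets. In 6 of them the highest or lowest cell stood apart by its gap to the next, and about 1 set in 20 would by chance. The share of cis contacts above 10 Mb, among those above 1 Mb, was low in cell 10 with 58.7%. Contact ends per Mb of a chromosome over the cell's median chromosome were low on chromosome 1 (0.802) and chromosome 5 (0.795) of cell 6 and on chromosome 3 of cell 5 (0.778), and high on chromosome 11 of cell 7 (1.26). The trans share of chromosome 5 was low in cell 1, 5.74%.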

How the results depend on the processing

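Each result was compared as the distance between cells 2 and 3 and cells 6 and 7 (the lowest of one pair minus the highest of the other, 0 where they overlap). Chromosomes with both cells 2 and 3 above were 19 of 19 under every alternative without X and 20 of 20 with X. The distance in partner number, 1.26, was 4.11 where a partner needed at least 5 contacts. For contacts alone in a patch, the distance of 7.48 points was 0 without thinning and 0 at equal contacts. For neighbouring trans contacts the distance of -2.71 points was 0 without thinning. These alternatives keep unequal trans numbers, while the main setting thins the trans contacts of cells 2, 3 and 7 and not those of cell 6. What part this has in either value was not tested. For sorting of trans contacts, the distance of -4.93 points was -9.01 with the bins of weakest eigenvector left out and 0 without balancing (the cause was not tested). With each cell left out, distances were 1.26 to 3.79 for partner number, 1.47 to 3.58 at equal trans number, 0.963 to 3.53 for the effective number, -5.77 to 0 for the 10 largest interfaces, 7.48 to 20.4 for contacts alone, -7.07 to -4.93 for trans sorting, -0.197 to 1.64 for cis sorting, -1.93 to 1.04 for span, -0.256 to -0.140 for the ratio of ends to middle, and -10.8 to -2.71 for neighbours. Without cell 7 the distances of partner number, contacts alone, neighbours and the ratio of ends to middle were the largest of these. Overlaps ended without cell 7 or 2 for interfaces and without cell 7 or 6 for cis sorting and span. The other alternatives moved each distance by less than the SD over the 9 Bgl II cells and kept its direction or the overlap, although the distance fell from 1.47 to 0.105 for partners with at least 5 contacts at equal trans number and from 0.963 to 0.454 for the effective number with another seed. The end zones of 5 and 20 Mb, the share over 50 Mb and the sorting with near contacts counted once were chosen after seeing the data. No paired analysis was possible because the labels give no numbers that pair cells. Each chromosome held 641 to 2229 ends in a cell, which limits values by chromosome.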

Other observations

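Contacts between the end zones of different chromosomes were counted as well. In the pool, trans contacts joining the first 10 Mb of 2 chromosomes were 4825, 1.59 times the number given by the share of ends in these zones, those joining the last 10 Mb 1.42 times, and those joining a first and a last zone 0.617 times. In single cells the counts were small. Contacts between first zones were 19 in cell 2, 17 in cell 3, 8 in cell 6 and 21 in cell 7, against 16.4, 17.9, 10.7 and 13.6 expected. Contacts between last zones were 41, 32, 32 and 17, against 26.1, 29.3, 16.2 and 17.2. Contacts between a first and a last zone were 26, 33, 9 and 28, against 41.4, 45.8, 26.3 and 30.7, below the expected number in all 4 cells. These zone contacts did not separate cells 2 and 3 from cells 6 and 7.

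Across the 19 chromosomes of a cell, trans share and the median cis distance as a share of chromosome length were related in some cells and not in others. Spearman rho was -0.172 in cell 2, 0.593 in cell 3, 0.133 in cell 6, 0.570 in cell 7 and 0.884 in the pool. Both quantities carry chromosome length, since the distance was divided by it and trans share fell with it (rho -0.916 in the pool). In Mb, the pool's median distance was 20.3 on chromosome 1, which had its lowest trans share, and 9.51 on chromosome 19, which had its highest. These rho are therefore not read as a link apart from length, and the part of length was not tested. Chromosomes of 1 map share its library and are not independent, so no p is given.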
